A study of Homo sapiens with 12 samples.

Results

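The genes FOS, FOSB, FOSL1, FOSL2, JUN, JUNB, JUND, EGR1, IER2 and MYC were followed across the 4 treatment groups of an RNA-seq experiment in MDA-MB-231-ERβ cells. They were chosen by name as the FOS and JUN families of AP-1 together with 3 other immediate early genes. All 10 were found among the 12451 entries of the count table, and all 10 were among the 11303 entries with enough reads to be tested.

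AP-1 is a dimer of leucine zipper proteins, in its classic form built from JUN-family and FOS-family proteins or from JUN proteins alone. Other partners, among them ATF2, JDP2 and BATF, can also take part. Immediate early genes are transcribed within minutes of a stimulus without new protein synthesis. In many cells this response is brief, so that FOS and EGR1 transcripts peak and decline early, while the products of FOSL1 and FOSL2 persist longer and can take their place in the dimer. TNFα reaches these genes through the MAP kinase cascades and NFκB, and ligand-bound estrogen receptors can act on AP-1 sites through protein contacts. MYC is a transcription factor that drives growth and that is itself induced early by growth factors and cytokines.

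MDA-MB-231 is a TNBC cell line, and MDA-MB-231-ERβ cells were engineered from it to express full length human ERβ when doxycycline (dox) is present. All 4 groups were grown in charcoal-stripped serum with dox. The sample labels of the E2+ TNFα group do not name dox, which for that group is taken from the study's methods. Cells of the vehicle group received ethanol for 5 days, the E2 group 1 nM E2 (estradiol) for 5 days, the TNFα group ethanol for 5 days with 20 ng/ml TNFα for the final 3 h, and the E2+ TNFα group both agents on the same schedule. Each group had 3 libraries from separately plated dishes of the same engineered line, so p-values measure the spread between these dishes. ERβ in this line comes from a dox-driven transgene, and no library from cells without dox was analysed here.

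All 6 mesenchymal markers set as high for MDA-MB-231 were in the table. VIM, which encodes an intermediate filament protein, was at 1042 to 1668 CPM (counts scaled to a common library size with TMM). CD44, LGALS1, S100A6 and CAV1 were at 153 CPM or more in every library, but ANXA1 ranged from 7.81 to 362 CPM and so reached down to the levels of the epithelial markers. Of 7 luminal or epithelial markers, 3 were in the table, namely CDH1 (1.77 to 53.4 CPM), EPCAM (6.54 to 15.7 CPM) and GATA3 (3.67 to 14.5 CPM). Of 6 blood and endothelial markers, CD14 alone was in the table, at 0.556 to 1.89 CPM. ESR2, the gene of ERβ, was at 228 to 508 CPM.

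The vehicle libraries stood apart from the other 9 before any gene was considered. They held 35.8 to 39.9 M assigned reads (M, mega), against 7.65 to 15.8 M for E2, 19.5 to 30.5 M for TNFα and 16.8 to 36.7 M for E2+ TNFα. The mean exon GC content weighted by reads was 50.6 to 51.5% in vehicle and 53.4 to 54.6% in the other groups. Across the 11303 genes tested, the signed log2 fold change relative to vehicle went with exon GC content, with a Spearman correlation of 0.66 for E2, 0.71 for TNFα and 0.67 for E2+ TNFα. In the comparisons without vehicle it was -0.21 for E2+ TNFα against TNFα and -0.33 against E2. A technical difference of the vehicle libraries cannot be told apart from the treatments. Each change relative to vehicle is therefore given beside the value after the dependence of each library on GC content and gene length was taken out (trends removed), or after one unwanted factor estimated from housekeeping genes (RUV factor) was added, wherever these changed the call.

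A gene was called significantly regulated at a log2 fold change of at least 1.5 in size, p below 0.05 and an adjusted p of at most 0.1. Rose and fell below mean an adjusted p of at most 0.1, whether or not the size threshold was passed.

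FOS, FOSB and EGR1 were highest in the vehicle libraries. They also carry related sequences upstream of their starts, but a link between these sequences and the levels was not tested. FOS (chr14:75278778-75282234) and FOSB (chr19:45467995-45475179) encode the short-lived FOS proteins, and EGR1 (chr5:138465492-138469315) encodes a zinc finger factor of the same early response. Promoters of 8 of the 10 genes, all but FOSL1 and MYC, were matched in RefSeq (hg38), and the 500 bases before the start were searched on both strands. The CArG box, which binds serum response factor, was found in FOS, FOSB and EGR1 and in none of the other 5 promoters searched. It occurred in 2.43% of 35116 promoters searched in the same way. Stretches that hold the boxes are shown here because, among the 8 promoters searched, these 3 alone held a CArG box. Positions are counted back from -1, the base before the RefSeq start. Capitals mark the CArG boxes and the cyclic AMP response element (CRE, TGACGTCA) or its part TGACGT on either strand.
FOS: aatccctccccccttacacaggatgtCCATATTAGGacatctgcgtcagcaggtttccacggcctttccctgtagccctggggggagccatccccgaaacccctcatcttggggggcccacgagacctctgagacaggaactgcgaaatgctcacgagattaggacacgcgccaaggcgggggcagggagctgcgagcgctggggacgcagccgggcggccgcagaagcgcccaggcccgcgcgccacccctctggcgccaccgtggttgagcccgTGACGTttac
FOSB: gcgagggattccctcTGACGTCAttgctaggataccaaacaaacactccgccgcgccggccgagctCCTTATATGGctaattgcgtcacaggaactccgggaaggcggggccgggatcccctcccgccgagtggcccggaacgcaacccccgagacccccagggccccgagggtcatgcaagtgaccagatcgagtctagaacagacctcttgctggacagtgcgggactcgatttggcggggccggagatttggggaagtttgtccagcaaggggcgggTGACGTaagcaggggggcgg
EGR1 distal: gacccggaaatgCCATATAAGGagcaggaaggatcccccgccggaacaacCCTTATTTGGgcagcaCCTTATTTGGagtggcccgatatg
EGR1 proximal: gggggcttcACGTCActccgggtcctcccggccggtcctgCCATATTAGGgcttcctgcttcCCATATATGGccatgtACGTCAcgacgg

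The FOS stretch (chr14:75278488-75278773, plus strand) runs from -340 to -55, with the CArG box at -314 to -305 and TGACGT at -64 to -59. The FOSB stretch (chr19:45467656-45467955, plus strand) runs from -340 to -41 and holds a whole CRE at -325 to -318, the CArG box at -274 to -265 and a further TGACGT at -60 to -55. The EGR1 stretches (chr5:138465049-138465138 and chr5:138465334-138465423, plus strand) hold 5 CArG boxes, which begin at -418, -380, -364, -105 and -83. The part TGACGT, which every CRE contains, was also found in FOSL2, JUN and JUND, and in 10.3% of all promoters. The EGR site GCGNGGGCG was found in FOSB, JUND and EGR1 (11.2% of all promoters), the κB site in FOSB, JUNB and IER2 (17.6%), and TATAAA in FOS, FOSB and JUNB (21.2%). The AP-1 site TGANTCA and the estrogen response element GGTCANNNTGACC were in none of the 8 windows, and in 11.9% and 0.0541% of all. These are letter matches and not shown to be bound in these cells.

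FOS was at 13.6, 14.3 and 14.5 CPM in the vehicle libraries, at 0.205, 0.957 and 1.63 CPM with E2, at 0.757, 0.848 and 0.676 CPM with TNFα and at 1.05, 1.36 and 1.47 CPM with E2+ TNFα. All 9 treated libraries lay below all 3 vehicle libraries. The low values rest on few reads, namely 3, 6 and 18 in the E2 libraries, 13 to 26 with TNFα and 17 to 49 with E2+ TNFα, against 562 to 664 in vehicle. FOS fell with E2 by a log2 change of -4.01 ± 0.402 (SE), a 16.1-fold difference (adjusted p = 3.33e-07). It also fell with TNFα (log2 -4.20 ± 0.365, adjusted p = 1.31e-07) and with E2+ TNFα (log2 -3.42 ± 0.345, adjusted p = 5.06e-07). These falls were not reduced by removal of the GC and length trends (-4.57, -4.62 and -3.79) or by the RUV factor (-4.25, -4.39 and -3.63). FOS could not be tested when a vehicle library was left out or when 10 counts were asked of every library. It reached an RPKM of 1 in all 3 vehicle libraries and in none of the 9 treated libraries. FOS was thus tested only because it was high in vehicle, which selects for a fall in advance. Its p-values and its values under other settings are therefore given as a description.

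EGR1 was at 57.7, 58.1 and 58.3 CPM in vehicle, at 14.4, 11.6 and 11.6 CPM with E2, at 9.71, 9.49 and 13.5 CPM with TNFα and at 16.9, 16.5 and 16.4 CPM with E2+ TNFα. The vehicle libraries again lay above all 9 others, and the E2+ TNFα libraries above the E2 and the TNFα libraries. EGR1 fell with E2 (log2 -2.20 ± 0.160, adjusted p = 1.5e-08), with TNFα (-2.42 ± 0.156, adjusted p = 1.01e-08) and with E2+ TNFα (-1.80 ± 0.152, adjusted p = 8.99e-08). All 3 falls passed the size threshold with the GC and length trends removed (-2.78, -2.97 and -2.28) and with the RUV factor (-2.08, -2.32 and -1.69).

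FOSB was at 8.61, 8.37 and 7.70 CPM in vehicle, at 2.12, 1.44 and 1.27 CPM with E2, at 2.34, 1.96 and 3.95 CPM with TNFα and at 3.40, 1.43 and 2.01 CPM with E2+ TNFα. The 3 vehicle libraries lay above all others, and the 3 treated groups overlapped one another. FOSB fell with E2 (log2 -2.31 ± 0.358, adjusted p = 2.7e-05), with TNFα (-1.60 ± 0.314, adjusted p = 0.00026) and with E2+ TNFα (-1.89 ± 0.320, adjusted p = 7.49e-05). With the RUV factor the log2 changes were -2.61, -1.89 and -2.21 with adjusted p of 0.125, 0.248 and 0.195, and FOSB was then not called. Without TNFα replicate 1 or 2 the TNFα value was -1.49 or -1.40, under the size threshold. FOS and FOSB reached an RPKM of 1 in all 3 vehicle libraries and, apart from 1 TNFα library for FOSB, in no other, so both entered the tests through vehicle.

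**Figure D1:**
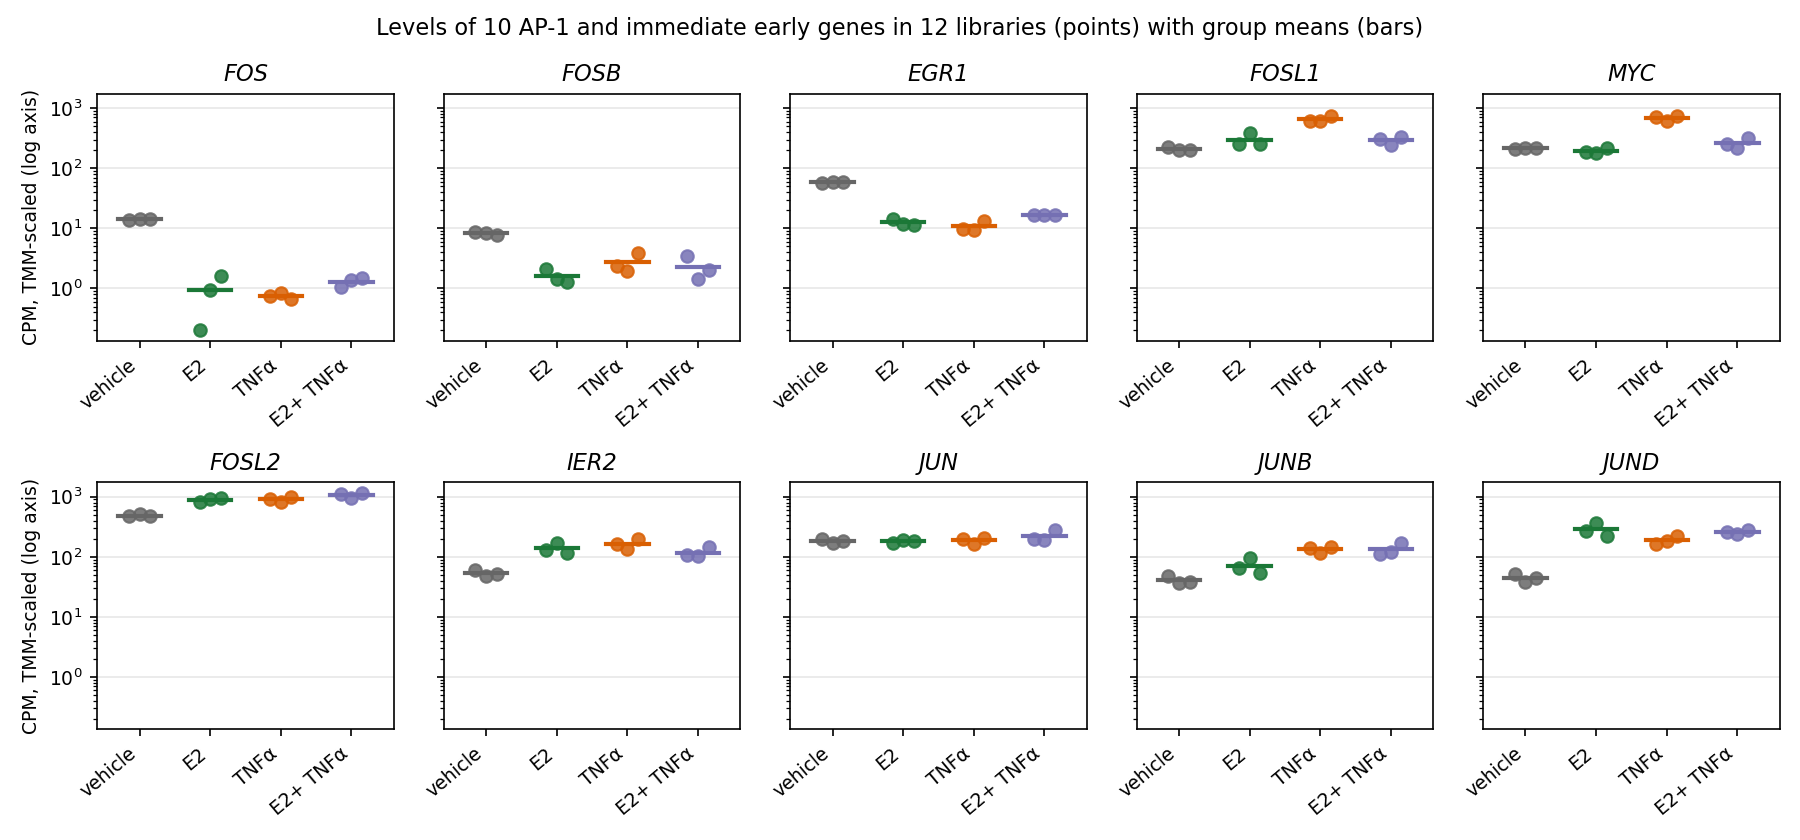
TMM-scaled CPM on a log axis for each gene in every library, with points for the 3 libraries of a group and a bar at their mean. FOS, FOSB and EGR1 were highest in vehicle, and FOSL1 and MYC were highest with TNFα alone, where all 3 libraries lay above those of every other group.

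FOSL1 and FOSL2 encode the FOS-related proteins FRA1 and FRA2, which lack the strong activation domain of FOS. FOSL1 (chr11:65892136-65900526) is known for high levels in mesenchymal TNBC cells. It was at 225, 204 and 199 CPM in vehicle, at 255, 380.1 and 256 CPM with E2, at 618, 603 and 747 CPM with TNFα and at 312, 248 and 332 CPM with E2+ TNFα. The TNFα libraries lay above those of the 3 other groups, and the E2 and E2+ TNFα libraries overlapped.

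FOSL1 rose by 1.65 ± 0.164 (log2, 3.14-fold, adjusted p = 4.26e-07) with TNFα relative to vehicle, and was significantly regulated. The rise was 0.85 with the trends removed and passed the adjusted p only, and with the RUV factor it was 0.42 (adjusted p = 0.388). The comparison that uses no vehicle library gave a steadier value. In E2+ TNFα relative to TNFα cells, FOSL1 fell by 1.14 ± 0.162 (log2, 2.21-fold lower, adjusted p = 5.59e-05), which is under the size threshold. Over the 10 alternatives this difference lay between -1.23 and -1.05, and over the 6 omissions of a library between -1.23 and -1.03. Between E2+ TNFα and E2 the log2 difference of FOSL1 was 0.00 ± 0.161 (adjusted p = 0.995).

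The E2 and E2+ TNFα changes of FOSL1 relative to vehicle were 0.50 and 0.51 (log2), with adjusted p of 0.00995 and 0.00983. Both turned to -0.41 and -0.21 with the trends removed and to -0.92 and -0.82 with the RUV factor. A stretch on chromosome 4 (chr4:128155794-128156863) matches FOSL1 exons at 1025 of 1074 aligned bases (95.4%), so a share of its reads could be placed there.

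FOSL2 (chr2:28392759-28417312) was at 476, 508 and 472 CPM in vehicle, at 805, 923 and 958 CPM with E2, at 916, 801 and 1004 CPM with TNFα and at 1103, 945 and 1141 CPM with E2+ TNFα. All treated libraries lay above all vehicle libraries, and the treated groups overlapped. FOSL2 rose by 0.88 ± 0.121 with E2 (log2, adjusted p = 8.19e-06), by 0.90 ± 0.121 with TNFα (adjusted p = 7.48e-06) and by 1.13 ± 0.122 with E2+ TNFα (adjusted p = 9.51e-07), all under the size threshold. The trend removal left these at 0.96, 0.85 and 1.10, and the RUV factor gave 0.38, 0.46 and 0.65 with adjusted p of 0.442, 0.322 and 0.161. FOSL2 did not differ at the threshold between E2+ TNFα and TNFα (log2 0.23 ± 0.120, adjusted p = 0.15). Over the 10 alternatives this difference was 0.19 to 0.25, with adjusted p of 0.0127 to 0.239 (edgeR or DESeq2), so it passed in some. Its exons overlap the antisense RNA FOSL2-AS1 and a further long noncoding RNA on the same strand as FOSL2. The strand setting of the counting is not given in the sources used here.

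Between genes, levels were compared per length as RPKM, without correction for GC content. FOSL1 and FOSL2 together made nearly all of the summed FOS-family RPKM in every library. In vehicle the sum was 185 ± 7.52 RPKM (SD, n = 3), of which FOSL1 was 64.6%, FOSL2 30.7%, FOS 3.56% and FOSB 1.18%. With TNFα the sum was 481 ± 56.2 RPKM and the FOSL1 share 77.7% ± 1.03, against 57.4% ± 1.32 of 295 ± 37.4 RPKM with E2+ TNFα. The FOSL1 share was 76.6 to 78.5% in the TNFα libraries and 55.9 to 58.5% in the E2+ TNFα libraries, so the 2 groups did not overlap, while FOSL2 made up 21.3 to 23.2% and 41.1 to 43.7%. With E2 alone the sum was 275 ± 44.9 RPKM and the FOSL1 share 61.2% ± 5.14. FOS was at most 0.291% of the family in any treated library.

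**Figure D2:**
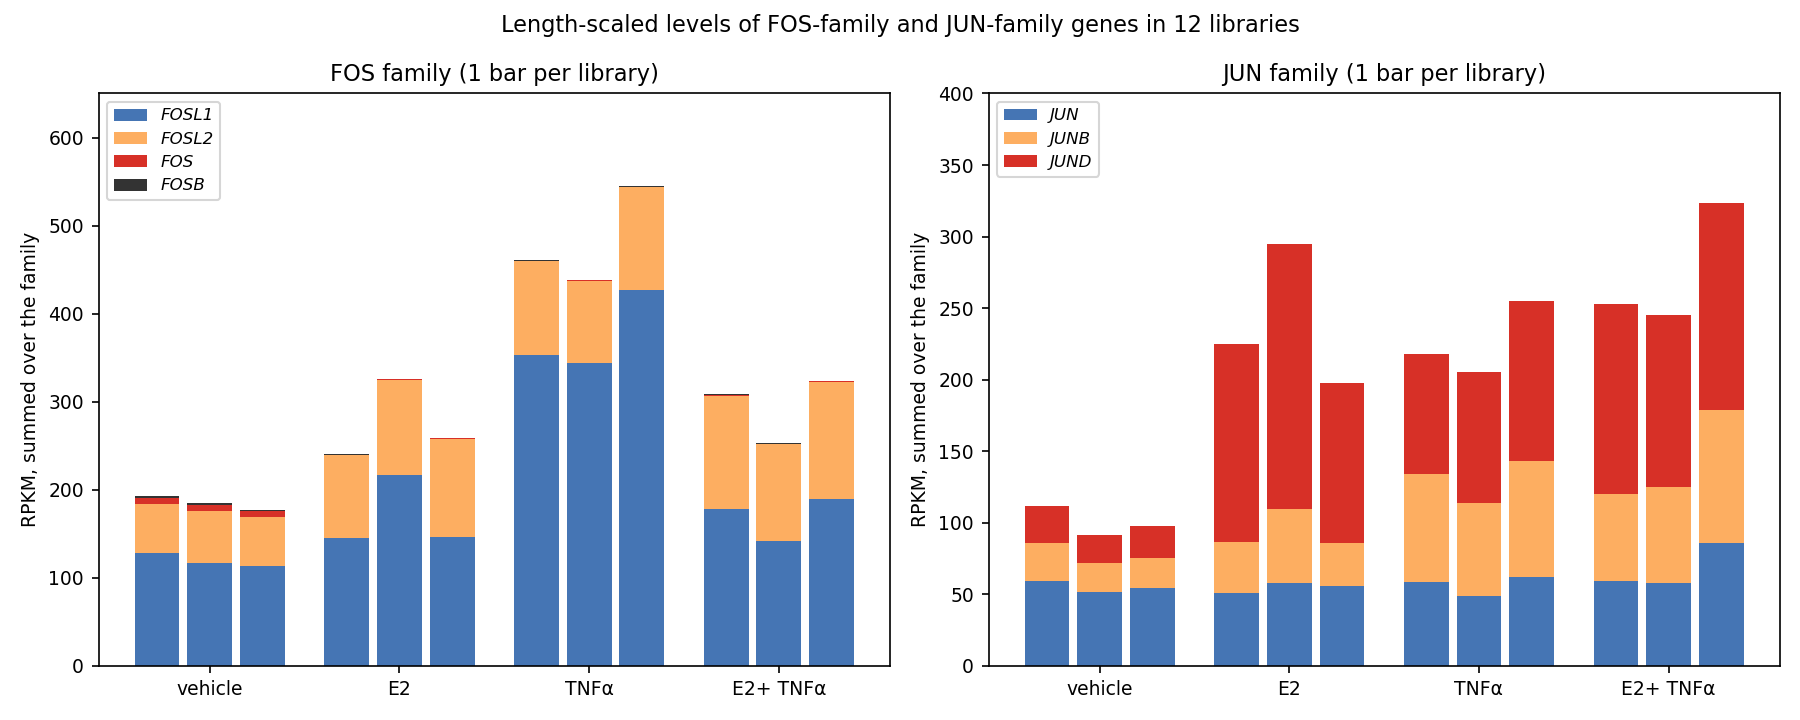
RPKM of the FOS-family genes (left) and JUN-family genes (right) stacked in 1 bar per library from 0, ordered by group. FOSL1 makes the larger share of the FOS-family bars, which are tallest with TNFα, and JUND makes the larger share of the JUN-family bars with E2. RPKM was not corrected for GC content, in which vehicle differs from the other groups.

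The JUN family showed 3 different patterns. JUN (chr1:58780791-58784113) encodes the founding member of AP-1, and its promoter is itself a target of AP-1 and ATF2. JUN was at 197, 172 and 180.5 CPM in vehicle, at 168, 192 and 186 CPM with E2, at 194, 163 and 207 CPM with TNFα and at 196, 193 and 284 CPM with E2+ TNFα. The groups overlapped apart from E2 and E2+ TNFα, and replicate 3 of E2+ TNFα was the highest. The log2 change relative to vehicle was -0.01 ± 0.148 with E2 (adjusted p = 0.946) and 0.04 ± 0.147 with TNFα (adjusted p = 0.824). JUN rose by 0.29 ± 0.147 with E2+ TNFα (adjusted p = 0.0825), which is near the threshold. Without replicate 3 of that group the value was 0.09 (adjusted p = 0.53), and without vehicle replicate 1, 2 or 3 it was 0.25, 0.14 or 0.20 and no longer passed. Nor did it pass with library size only (0.05, adjusted p = 0.742) or with at least 10 counts in each library (0.24, adjusted p = 0.135). JUN was, with the trends removed, lower than vehicle, at -0.61, -0.52 and -0.21 in the same order, and with the RUV factor at -1.25, -1.06 and -0.90.

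JUNB (chr19:12791496-12793311) encodes a JUN protein that often restrains JUN and that is induced by cytokines. It was at 47.6, 36.0 and 38.5 CPM in vehicle, at 64.4, 94.3 and 54.1 CPM with E2, at 137, 117 and 147 CPM with TNFα and at 111, 121 and 169.9 CPM with E2+ TNFα. Both groups with TNFα lay above both groups without it, and they overlapped each other. JUNB rose in E2+ TNFα relative to E2 cells by 0.93 ± 0.202 (log2, 1.9-fold, adjusted p = 0.0276), which is under the size threshold, and over the alternatives this rise was 0.91 to 1.06, with an adjusted p of at most 0.08. Without E2 replicate 1 it was 0.87 and no longer passed (adjusted p = 0.124). E2+ TNFα and TNFα differed by 0.01 ± 0.197 (log2, adjusted p = 0.987).

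Relative to vehicle JUNB rose by 1.72 ± 0.203 with TNFα (adjusted p = 2.16e-06), by 1.72 ± 0.203 with E2+ TNFα (adjusted p = 2.28e-06) and by 0.79 ± 0.202 with E2 (adjusted p = 0.00214). These were, with the trends removed, 0.67, 0.80 and -0.24, and with the RUV factor -0.02, -0.15 and -1.20. JUNB exons have a GC content of 65.0%, and they overlap exons of HOOK2 on the other strand.

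JUND (chr19:18279694-18281656) encodes the JUN protein that is usually present in resting cells, and it is not an immediate early gene in the strict sense. The exons of JUND have a GC content of 69.9%, above 99.6% of the genes tested. It was at 52.1, 38.7 and 43.7 CPM in vehicle, at 272, 364 and 220.3 CPM with E2, at 164, 180.1 and 219 CPM with TNFα and at 261, 236 and 283 CPM with E2+ TNFα. All vehicle libraries lay below all others, and the E2+ TNFα libraries lay above the TNFα libraries. Its promoter stretch from -240 to -41 (chr19:18281663-18281862, minus strand) is shown because it holds a whole CRE at -200 to -193, which 1.98% of promoters hold. Capitals again mark the CRE and TGACGT.
JUND: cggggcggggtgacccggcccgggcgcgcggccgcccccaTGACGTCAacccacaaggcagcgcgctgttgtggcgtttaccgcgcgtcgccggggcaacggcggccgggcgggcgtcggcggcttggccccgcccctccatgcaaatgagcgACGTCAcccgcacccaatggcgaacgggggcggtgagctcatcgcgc

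JUND rose by 2.67 ± 0.183 with E2 (log2, 6.36-fold, adjusted p = 9.21e-09), by 2.07 ± 0.179 with TNFα (adjusted p = 1.26e-07) and by 2.54 ± 0.182 with E2+ TNFα (adjusted p = 1.83e-08), and was significantly regulated in all 3. The rises of JUND with the trends removed were 1.53, 0.76 and 1.44, and with the RUV factor 1.42, 0.99 and 1.38, so JUND remained higher than vehicle with an adjusted p of at most 0.0982 and passed the size threshold only for E2 with the trends removed. Relative to TNFα, JUND rose by 0.47 ± 0.172 with E2+ TNFα (log2, adjusted p = 0.0434), and without TNFα replicate 1, TNFα replicate 2 or E2+ TNFα replicate 1 the value was 0.38, 0.42 or 0.45 and no longer passed (adjusted p up to 0.169). In RPKM, JUND made up 22.7% of the JUN-family sum in vehicle, 60.4% with E2, 42.3% with TNFα and 48.8% with E2+ TNFα, while JUN made up 55.1%, 23.4%, 25.1% and 24.5% of sums of 100.4 ± 10.6, 239 ± 50.2, 226 ± 25.7 and 274 ± 43.1 RPKM. These shares were not corrected for GC content, in which the vehicle libraries differ from the others. The part of that difference in the shift from JUN to JUND relative to vehicle was not tested.

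MYC, like FOSL1, set the TNFα libraries apart from the others. It was at 213, 213 and 214 CPM in vehicle, at 187, 179 and 215 CPM with E2, at 726, 607 and 730.1 CPM with TNFα and at 258, 219 and 314 CPM with E2+ TNFα. The TNFα libraries lay above all others without overlap. MYC rose by 1.69 ± 0.137 with TNFα relative to vehicle (log2, 3.22-fold, adjusted p = 6.97e-08). It was 1.17 with the trends removed and with the RUV factor 1.11 (adjusted p = 0.0361), both under the size threshold. MYC overlaps CASC11, a long noncoding RNA on the other strand.

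MYC fell in E2+ TNFα relative to TNFα cells by 1.38 ± 0.136 (log2, 2.61-fold lower, adjusted p = 1.27e-06). This difference was -1.43 to -1.33 over the alternatives and -1.53 to -1.26 when each library was left out. It passed the size threshold only without replicate 3 of E2+ TNFα, the library with the highest MYC in its group. Relative to E2, MYC rose with E2+ TNFα by 0.44 ± 0.134 (log2, adjusted p = 0.0893), but it no longer passed when the 2 groups were fitted alone (0.47, adjusted p = 0.324) or without E2 replicate 1 or 2 or E2+ TNFα replicate 1 or 3 (0.30 to 0.47, adjusted p up to 0.197). The log2 change of MYC with E2 relative to vehicle was -0.14 ± 0.134 (adjusted p = 0.356). Over the 10 alternatives it lay between -0.78 and -0.11. The adjusted p then ran from 1.97e-06 to 0.458 (edgeR or DESeq2), so whether MYC fell with E2 depended on the setting. With E2+ TNFα relative to vehicle MYC was at 0.31 ± 0.133 (adjusted p = 0.0483), but 0.06 (adjusted p = 0.651) with library size only, -0.16 with the trends removed and -0.31 with the RUV factor. It was 0.16 to 0.28 and no longer passed without any one of the vehicle libraries or without replicate 1 or 3 of E2+ TNFα.

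IER2 (chr19:13150468-13154908) encodes a short nuclear protein of the early response. It was at 60.5, 48.0 and 50.9 CPM in vehicle, at 129.9, 169 and 114 CPM with E2, at 163, 133 and 197 CPM with TNFα and at 107, 102 and 143 CPM with E2+ TNFα. The vehicle libraries lay below all others, and the treated groups overlapped. IER2 rose by 1.63 ± 0.182 with TNFα (log2, adjusted p = 1.27e-06), by 1.37 ± 0.182 with E2 (adjusted p = 5.76e-06) and by 1.14 ± 0.180 with E2+ TNFα (adjusted p = 3.85e-05), of which the first passed the size threshold. That rise was 1.46 without vehicle replicate 2 and 1.48 without TNFα replicate 3. With the trends removed the 3 rises were 0.71, 0.45 and 0.34, and with the RUV factor 0.16, -0.30 and -0.44. IER2 fell by 0.49 ± 0.178 with E2+ TNFα relative to TNFα (log2, adjusted p = 0.0431), but not at the threshold without TNFα replicate 3 or E2+ TNFα replicate 1 or 2 (-0.45 to -0.34, adjusted p up to 0.202). Its exons are 62.9% GC and overlap 2 antisense RNAs, and a stretch on chromosome 9 matches 235 of 237 aligned bases.

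**Figure D3:**
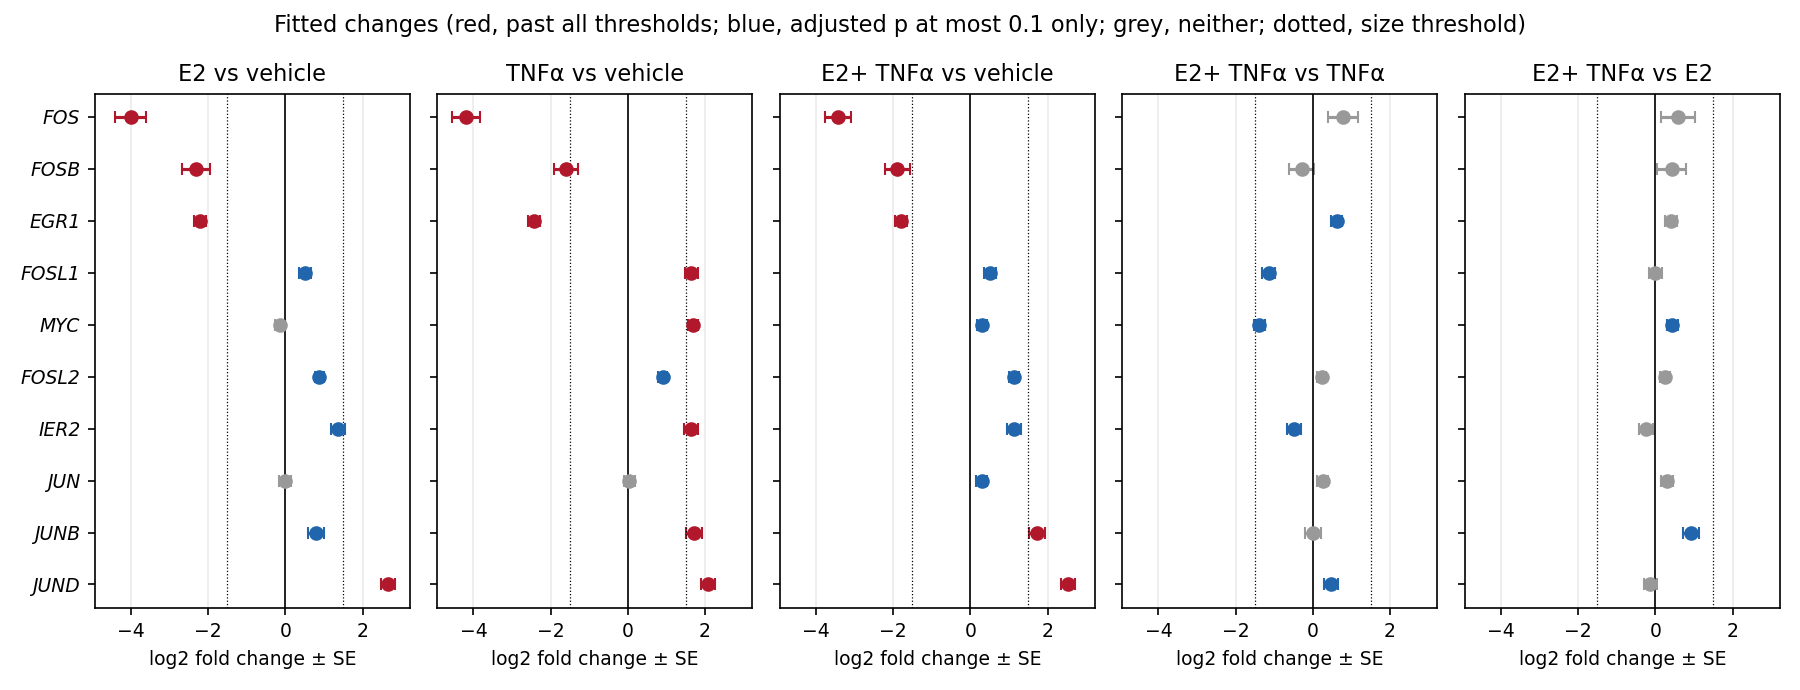
Log2 fold change ± SE (edgeR) of each gene in the 5 pairwise comparisons, with dotted lines at 1.5 in each direction. Red marks significantly regulated genes, which occur only in the 3 panels relative to vehicle. Blue marks genes with an adjusted p of at most 0.1 alone, among them FOSL1 and MYC below 0 for E2+ TNFα relative to TNFα.

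Counted over the 10 genes, 4 were significantly regulated with E2 relative to vehicle (JUND up, and FOS, FOSB and EGR1 down), beside 30.5% of all genes tested (9.87% up and 20.6% down). With TNFα relative to vehicle 8 were (FOSL1, JUNB, JUND, IER2 and MYC up, and the same 3 down), beside 26.7% of all genes (6.64% up and 20.0% down). With E2+ TNFα relative to vehicle 5 were (JUNB and JUND up, and the same 3 down), beside 25.1% (7.52% up and 17.6% down). These 3 comparisons share the vehicle libraries and are not independent of one another. FOS and FOSB had entered the tests through vehicle, where they are high, so their falls add nothing to these counts. Without both genes 2, 6 and 3 of 8 were called. At an adjusted p of at most 0.1 alone, 8, 9 and 10 of the 10 genes differed from vehicle, beside 81.8%, 81.9% and 80.6% of all genes, and the groups did not overlap for 8, 9 and 9, beside 80.9%, 86.6% and 81.6%. Those shares are near the background.

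Between E2+ TNFα and TNFα, 0 of 10 passed all thresholds (edgeR), beside 5.56% of all genes. At an adjusted p of at most 0.1, EGR1 and JUND rose and FOSL1, IER2 and MYC fell, which is 5 of 10 beside 45.3% (24.4% up and 21.0% down). EGR1 rose by 0.62 ± 0.153 (log2, adjusted p = 0.00546). FOS, which entered the tests through vehicle, did not pass (log2 0.77 ± 0.385, adjusted p = 0.128), though its libraries did not overlap. Its values rest on 13 to 26 reads with TNFα and 17 to 49 with E2+ TNFα. Between E2+ TNFα and E2, 0 of 10 passed all thresholds beside 0.407% of all genes, and 2 of 10 (JUNB and MYC, both higher) passed the adjusted p beside 6.0% (2.65% up). At an unadjusted p below 0.05, 5 and 3 of the 10 genes passed, beside 46.3% and 19.4% of all genes. DESeq2 called 0 in both comparisons past all thresholds, beside 5.53% and 0.451%. The libraries did not overlap for 5 of 10 genes relative to TNFα, FOS among them, and 4 of 10 relative to E2, beside 46.8% and 15.3%. FOS with E2+ TNFα relative to E2 was 0.58 ± 0.446 (log2, adjusted p = 0.504), but 1.52 without E2 replicate 3 and -0.03 without E2 replicate 1, so that single libraries of few reads decided it.

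**Figure D4:**
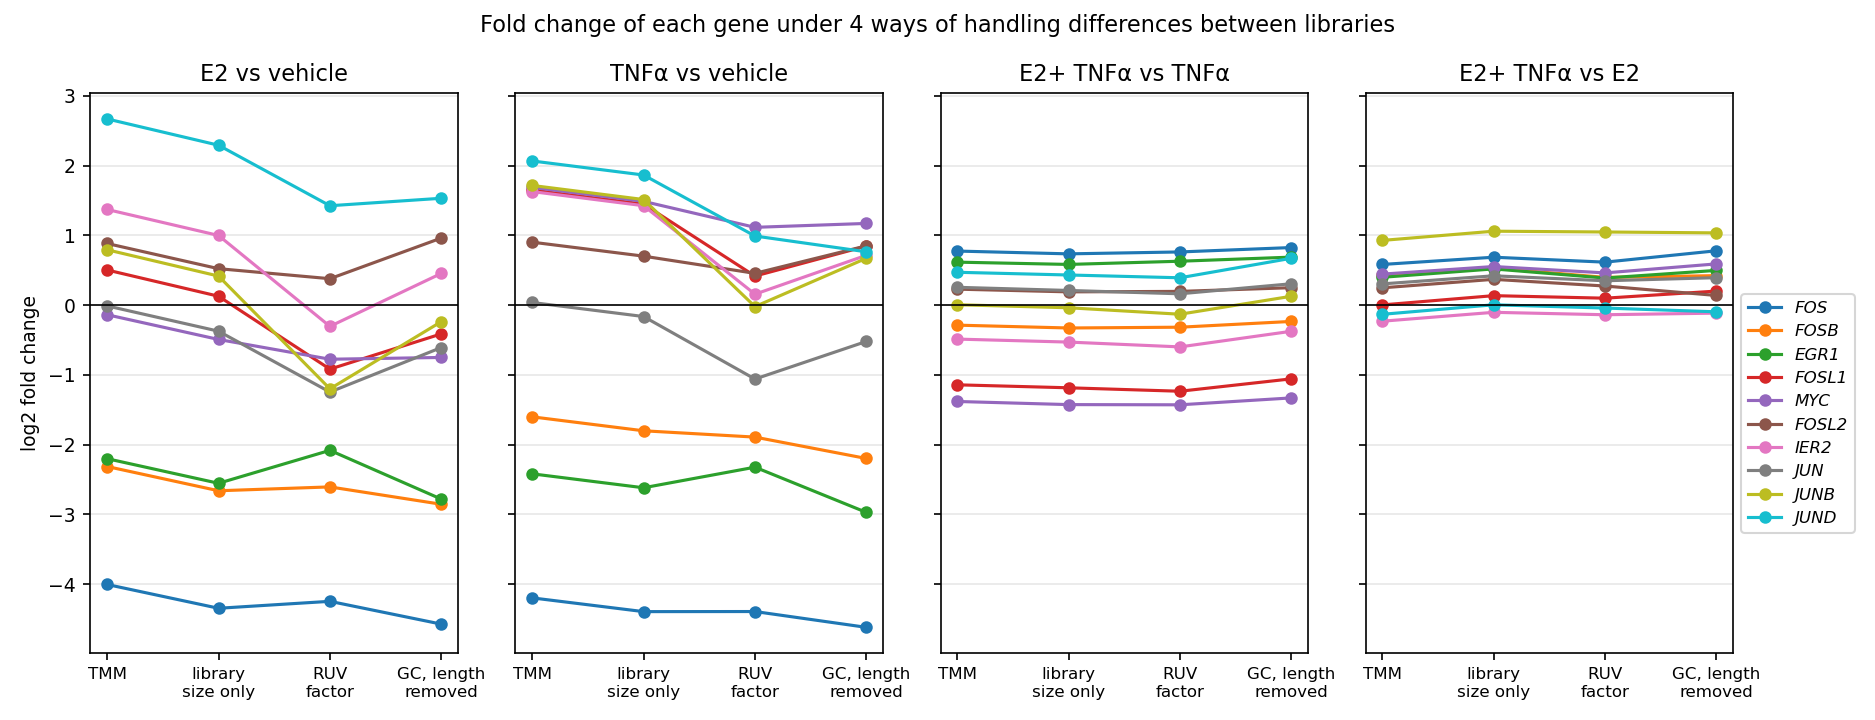
Log2 fold change of each gene under TMM, library size only, the RUV factor and removal of the GC and length trends, in 4 comparisons. In the panels relative to vehicle the lines of FOSL1, JUN, JUNB, JUND, IER2 and MYC lie lower than with TMM once the trends are removed or the RUV factor is added. The lines of the 2 panels without vehicle stay nearly level. For E2+ TNFα relative to TNFα, FOSL1 lies between -1.23 and -1.05 and MYC between -1.43 and -1.33. For E2+ TNFα relative to E2, FOSL1 lies between -0.013 and 0.204 and MYC between 0.43 and 0.59.

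In the test of the interaction, which asks whether the effect of TNFα differed with E2, 6 of the 10 genes passed all thresholds beside 31.8% of all genes, and 9 passed the adjusted p beside 76.6%. Without FOS and FOSB, which entered the tests through vehicle, 4 of 8 passed all thresholds and 7 of 8 the adjusted p.

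Removal of the trends took the number of significantly regulated genes from 8 to 3 for TNFα and from 5 to 3 for E2+ TNFα, and left 4 for E2. FOS and FOSB, which entered the tests through vehicle, are in each of these counts. Apart from them, EGR1 alone was called for TNFα and E2+ TNFα with the trends removed, and EGR1 and JUND for E2. All genes tested went the same way, to 10.5%, 11% and 14% called in the same order. With the RUV factor 2 of 10 were called in each of the 3 comparisons, which were FOS and EGR1. Apart from FOS, which entered through vehicle, EGR1 alone was called. Of all genes 16.6% were called for E2, 9.81% for TNFα and 13.6% for E2+ TNFα, and the counts are not read as a result about these genes. The settings plot shows that the comparisons without vehicle moved little between the same settings.

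Genes that act with these factors were described from 5 lists. Of 9 other AP-1 dimer partners tested, 3 were significantly regulated with E2+ TNFα relative to TNFα, beside 5.56% of all genes, and all 3 fell. With the trends removed 2 of the 9 were called. JDP2, a repressor that pairs with JUN proteins, was at 34.8, 28.4 and 29.8 CPM with TNFα and at 2.84, 2.52 and 3.63 CPM with E2+ TNFα, without overlap. The log2 difference was -3.36 ± 0.206 (adjusted p = 7.77e-09). The median log2 change of the list was -0.12, beside 0.04 for all genes. Relative to vehicle with TNFα, JDP2 rose by 1.82 and ATF2, a partner of JUN, fell by 2.68, and with E2 BATF rose by 1.77 and ATF2 fell by 2.41 (log2), but with the RUV factor none of these 4 passed the adjusted p. With the trends removed JDP2 was at 1.38, BATF at 0.76 and ATF2 at -0.24 and -0.03, all under the size threshold.

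Of 22 other immediate early genes tested, 6 rose and 11 fell at an adjusted p of at most 0.1 with E2+ TNFα relative to TNFα, with a median log2 change of -0.22, beside 24.4% and 21.0% of all genes and a median of 0.04. KLF2, a zinc finger factor, was at 10.5, 9.69 and 10.4 CPM with TNFα and at 2.78, 3.67 and 3.66 CPM with E2+ TNFα, a log2 difference of -1.58 ± 0.209 (adjusted p = 2.78e-05). It was -1.43 with the trends removed, under the size threshold. ARC, an early gene best known from neurons, ran the other way, at 0.560, 0.359 and 0.780 CPM with TNFα and 1.73, 1.85 and 2.1 CPM with E2+ TNFα, and rose by 1.79 ± 0.416 (log2, adjusted p = 0.00347). In vehicle ARC was at 15.1, 12.3 and 11.3 CPM, above all treated libraries, and it fell with E2 (log2 -2.69) and with TNFα (log2 -4.55). ARC reached an RPKM of 1 in the 3 vehicle libraries and in 1 E2 library alone, so it entered the tests through vehicle, and its treated libraries held 11 to 70 reads of it. IER5L rose relative to vehicle by 3.40 with E2 and by 2.39 with TNFα, and with the RUV factor by 1.31 (adjusted p = 0.15) and 0.55 (adjusted p = 0.546), which no longer passed. For TNFα it was 1.46 with the trends removed, under the size threshold.

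Of 20 kinases and factors upstream of AP-1, 4 rose and 6 fell with E2+ TNFα relative to TNFα, all at the adjusted p alone and under the size threshold. Their share is near the 45.3% of all genes. ELK1, a partner of serum response factor at CArG boxes, was at 219, 206 and 227 CPM with TNFα and at 129, 117 and 133 CPM with E2+ TNFα (log2 -0.78 ± 0.116, adjusted p = 8.36e-05). It rose by 1.64 with TNFα relative to vehicle, where MAPK8, a JUN kinase, fell by 2.24. ELK4, a relative of ELK1, fell by 2.41 with E2. MAPK8 was at -0.05 and ELK4 at 0.11 with the trends removed, so both falls were lost. ELK1 was then at 0.99, and at 0.97 with the RUV factor, both under the size threshold.

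Of 13 textbook AP-1 target genes tested, 2 rose and 2 fell past all thresholds with E2+ TNFα relative to TNFα, beside 5.56% of all genes, and they moved in opposite directions within the list. IL11, a cytokine gene, was at 462, 331 and 697 CPM with TNFα and at 28.6, 23.4 and 26.8 CPM with E2+ TNFα, a log2 difference of -4.24 ± 0.226 (adjusted p = 1.52e-09). HMOX1, which encodes heme oxygenase, was at 32.2, 27.9 and 36.7 CPM with TNFα and at 276, 257 and 316 CPM with E2+ TNFα, and rose by 3.14 ± 0.139 (adjusted p = 2.05e-10). IL6 was at 975, 935 and 1096 CPM with TNFα and 354, 323 and 406 CPM with E2+ TNFα, with 130.1, 138 and 147 CPM in vehicle. The order of its group means was that of MYC, and it rose by 2.85 with TNFα relative to vehicle (log2).

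MMP3, a matrix metalloproteinase, was highest in vehicle, as FOS was. It was at 95.5, 99.2 and 106 CPM in vehicle and between 2.71 and 4.27 CPM in all treated libraries, and fell with E2 (log2 -4.86) and with TNFα (log2 -4.95). HMOX1 rose by 2.44 with E2. CXCL8, which encodes a neutrophil chemokine, rose by 3.29 ± 0.557 with E2+ TNFα relative to E2 (log2, adjusted p = 0.00625), although its E2+ TNFα libraries ranged from 119 to 696 CPM. In vehicle CXCL8 was at 889, 1103 and 1183 CPM, above all treated libraries. With TNFα relative to vehicle it was at -1.31 (log2, edgeR adjusted p = 0.0281), but at 1.18 with the trends removed and at 4.51 with the RUV factor.

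Of 13 genes of the MYC network tested, MXD1 alone was significantly regulated with E2+ TNFα relative to TNFα, beside 5.56% of all genes. MXD1 encodes a partner of MAX that opposes MYC. It was at 15.3, 13.0 and 18.2 CPM with TNFα and at 50.8, 52.4 and 47.4 CPM with E2+ TNFα, and rose by 1.70 ± 0.154 (log2, adjusted p = 5.57e-07), while MYC fell. MXD4, of the same family, rose by 1.90 with E2 relative to vehicle, but was at 1.38 with the trends removed and at 0.57 with the RUV factor (adjusted p = 0.157). MGA, a large MAX partner, fell with E2 (log2 -2.06) and with TNFα (log2 -1.89), and with the RUV factor was at -0.50 and -0.49 with adjusted p of 0.707 and 0.709. With the trends removed MGA was at -0.40 and -0.33.

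**Figure D5:**
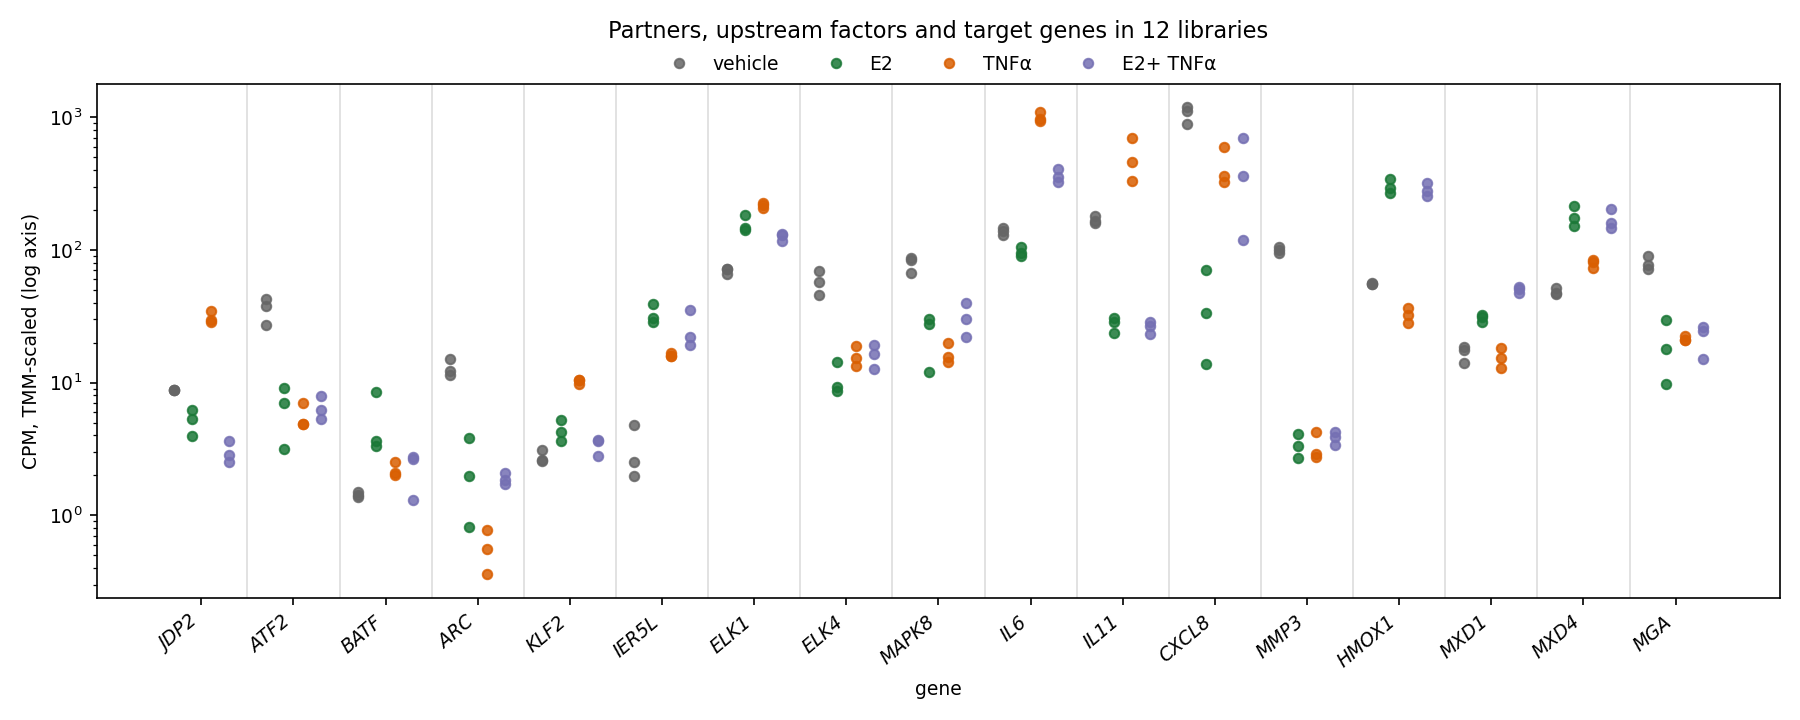
TMM-scaled CPM on a log axis of the 17 genes named from the lists, with 1 point per library and 1 colour per group. JDP2, KLF2, IL6 and IL11 were highest with TNFα alone, HMOX1 and MXD1 were higher with E2+ TNFα than with TNFα, and MMP3 and ARC were highest in vehicle.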

How the data were processed

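The authors prepared stranded mRNA libraries (TruSeq, 200 ng total RNA). Per the labels, reads were mapped to hg38 with TopHat2 2.1.0 and counted per gene with featureCounts. Whole-number counts without normalization were deposited, and the RUVseq correction that the study describes is not in them. The housekeeping genes and the factor of that correction are not given in the sources used here, so 20 housekeeping genes chosen here stood in for them. The strand setting of the counting is not given either.

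From the 12567 rows, 46 duplicates and 70 second names of a gene already listed were taken out. The 11303 genes that reached an RPKM of 1 in 3 or more libraries entered an edgeR 4.0.16 fit (R 4.3.3) of all 12 libraries with TMM and a mean for each of the 4 groups. The quasi-likelihood F test was used, with Benjamini-Hochberg adjustment over all these genes. CPM and RPKM were computed from the counts. The fit was tested on simulated counts. Alternatives were DESeq2 1.42.0, its size factors, library size only, other count filters, the replicate number as a block, the groups compared alone, one RUV factor, loess correction (span 0.3) of every library for exon GC content and length, and omission of each library. Exons were compared with hg38 in stretches of at least 200 bases. The genes and the lists were chosen with earlier results of these data known. From each list the text names the largest rise and fall among genes past the thresholds in each pairwise comparison except E2+ TNFα relative to vehicle. Marker lists served only to check the cell line.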

Additional observations from a re-analysis of the deposited data

Results flagged for a closer look

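The effect of TNFα in E2-treated cells differed from its effect in vehicle-treated cells for 9 of the 10 genes in the test of the interaction (edgeR, adjusted p of at most 0.1), beside 76.6% of all genes, and 6 passed all thresholds, beside 31.8%. The value is the log2 effect of TNFα with E2 minus that without E2. It was 4.78 ± 0.559 (SE) for FOS, 2.82 ± 0.220 for EGR1 and 2.03 ± 0.488 for FOSB, whose log2 changes for E2+ TNFα relative to E2 were 0.58, 0.40 and 0.43, none past the adjusted p. FOS and FOSB entered the tests through vehicle, where they are high, since apart from 1 TNFα library for FOSB no treated library reached an RPKM of 1, so their values are given as a description. Without them 7 of 8 genes passed the adjusted p and 4 of 8 all thresholds. The value was -2.20 ± 0.246 for JUND, -1.86 ± 0.254 for IER2, -1.65 ± 0.228 for FOSL1, -1.24 ± 0.190 for MYC, -0.79 ± 0.282 for JUNB and -0.65 ± 0.170 for FOSL2. JUN was at 0.27 ± 0.209 (adjusted p = 0.262). The interaction rests on the vehicle libraries, which differ from the others in GC content and depth. With the RUV factor the value for FOS was 5.01, again a description, since FOS held only 3, 6 and 18 reads in the E2 libraries. The interaction held for EGR1 (2.71, adjusted p = 0.00138), turned to 1.07 for JUNB and reached the adjusted p for JUN (1.41, adjusted p = 0.00716). It no longer passed for the other 6, among them FOSB at 2.29 (adjusted p = 0.178). With the trends removed all 10 genes passed the adjusted p, FOS and FOSB among them through vehicle. FOSL1 was then at -0.64, FOSL2 at -0.71, JUND at -0.86, IER2 at -0.83, MYC at -0.58, JUNB at 0.36 and JUN at 0.91. The part of the vehicle libraries in the interaction cannot be told apart from that of the treatments.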

How the results depend on the processing

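The number of significantly regulated genes among the 10 kept within 1.5 times its value in 87 of 102 alternative counts, the order of levels included. The 87 overstate how steady the counts were. They hold counts of 0 that stayed 0, and the order of levels, which JUN, JUNB and JUND changed. The genes counted also include FOS and FOSB, which entered the tests through vehicle. For E2 relative to vehicle it went from 4 to 2 with at least 10 counts in every library, where 8 of the genes could be tested, and to 2 with the RUV factor. For TNFα relative to vehicle it went from 8 to 5 with library size only, to 2 with the RUV factor and to 3 with the GC and length trends removed, with or without the replicate block. For E2+ TNFα relative to vehicle it went from 5 to 3 with at least 10 counts in every library or with the trends removed, with or without the block, and to 2 with the RUV factor. The count of the interaction went from 6 to 2 with the RUV factor and to 3 with the trends removed, with or without the block. Omission of a library gave 0 to 1 for E2+ TNFα relative to TNFα (1 without E2+ TNFα replicate 3) and 0 to 1 relative to E2 (1 without E2 replicate 3). Library size only shifted the median of all genes relative to vehicle by -0.36 for E2, -0.20 for TNFα and -0.24 for E2+ TNFα, and that of the interaction by 0.32. The cause of these changes was not tested.

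Replicate numbers gave no sign that the libraries were paired. The deviations of same-numbered libraries correlated at -0.47 to 0.45, and those of differently numbered libraries at -0.53 to 0.63. With 3 libraries in each group this cannot exclude pairing. With the replicate block alone the counts were 4, 8, 5, 0, 0 and 6, as without it, and JUN for E2+ TNFα relative to vehicle (0.28, adjusted p = 0.1004) and MYC for E2+ TNFα relative to E2 (0.44, adjusted p = 0.123) no longer passed the adjusted p.

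Single results of the 10 genes were followed over all alternatives and omissions of a library. Of these, 862 kept their direction and their call at an adjusted p of at most 0.1. The call was lost in 42 and gained in 29, and the direction turned in 53. Among the gains was JUN for E2+ TNFα relative to TNFα, at 0.16 to 0.31 over the alternatives with an adjusted p down to 0.00476 (edgeR or DESeq2). Directions turned as follows (log2). With the RUV factor, E2 relative to vehicle was -0.92 for FOSL1, -1.20 for JUNB and -0.30 for IER2. TNFα relative to vehicle was then -1.06 for JUN and -0.021 for JUNB, and E2+ TNFα relative to vehicle -0.82 for FOSL1, -0.90 for JUN, -0.15 for JUNB, -0.44 for IER2 and -0.31 for MYC. JUNB was -0.13 for E2+ TNFα relative to TNFα and 1.07 for the interaction. With the trends removed, FOSL1 was -0.41 and JUNB -0.24 for E2, JUN -0.52 for TNFα, and FOSL1 -0.21, JUN -0.21 and MYC -0.16 for E2+ TNFα, all relative to vehicle, and JUNB 0.36 for the interaction. With the replicate block added, the same values were -0.41, -0.24, -0.53, -0.21, -0.22, -0.17 and 0.36.

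Values near 0 turned under small changes. JUN for E2 relative to vehicle was 0.00317 with DESeq2 or its size factors and 0.014 with no filter. JUN for TNFα relative to vehicle was -0.16 without TMM (library size alone), -0.018 when every library had to hold 10 counts, and -0.10 to 0.13 over omitted libraries. JUNB for E2+ TNFα relative to TNFα was -0.026 with DESeq2 or its size factors, -0.038 with library size only, -0.00090 with no filter, -0.013 with the compared groups only and -0.20 to 0.10 over omitted libraries. FOSB in that comparison was -0.67 to 0.044 over omitted libraries. For E2+ TNFα relative to E2, FOSL1 was -0.013 with DESeq2 or its size factors, -0.00095 with no filter and -0.10 to 0.20 over omitted libraries, FOS -0.032 to 1.52, and JUND 0.0046 with library size only and -0.29 to 0.059 over omitted libraries. Of the other named genes, BATF for E2 relative to vehicle was -0.070 and MAPK8 for TNFα relative to vehicle 0.33 with the RUV factor, and ELK4 for E2 relative to vehicle was 0.11 with the trends removed and 0.090 with the block added. FOS could not be tested without a vehicle library, and FOS and FOSB could not be tested with at least 10 counts in every library. JUN, JUNB and JUND changed the order of their group means between TMM-scaled CPM and RPKM by library size, and the other 7 genes did not.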
